A study of Mus musculus with 24 samples.

Results

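The 10 genes described here encode proteins that mark macrophages or are made in quantity by them: Adgre1, Cd14, Cd68, Csf1r, Mrc1, Cd163, Lyz2, Aif1, Apoe and Trem2. They were taken by name from the deposited table of 15055 genes, and all 10 are in it. The group was chosen by measured values, because Adgre1 and Cd14 lay on opposite sides of 0 when distal was compared with proximal amputation at 12 days. That contrast is therefore given as values without a test, and Adgre1 and Cd14 have no test in any comparison that uses 12 day libraries.

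The tissue was the hind limb digit tip of C57BL/6 mice aged 10 to 12 weeks, in which bone, cartilage, marrow, dermis and epidermis were sequenced together. One set of digits was cut distally, a level from which the adult mouse digit tip is known to regrow, and the other proximally, a level from which it is known not to. RNA came from distal digits at 12, 14 and 21 days post amputation and from proximal digits at the same 3 times, with 4 libraries in each of the 6 groups. Every digit had been amputated, and no uncut digit was analysed here, so no value below shows what an intact tip holds. The labels name no transgene, deletion or other agent. Nothing in them ties a library to 1 animal, and the p-values below therefore speak only of how far the sequenced libraries scatter, some of which may be technical.

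Macrophages clear dead cells and debris from wounds, resorb matrix and release signals that direct repair; they derive from blood monocytes or from cells seeded in the tissue before birth. Their survival depends on the receptor encoded by Csf1r, and the same receptor is needed by osteoclasts, the bone-resorbing cells that share the macrophage's precursors. In the mouse digit tip, macrophages and osteoclasts are both known to take part in the regrowth of bone after distal amputation.

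The genes differ in what they stand for. Adgre1 (chromosome 17, bases 57358691 to 57483527, plus strand, in the GENCODE annotation of build GRCm38) encodes F4/80, the classic surface marker of mature mouse macrophages. Cd14 encodes the co-receptor that hands bacterial endotoxin to TLR4, and it is also made by monocytes and neutrophils. Csf1r overlaps Hmgxb3 on the other strand, so its reads are uncertain if counting ignored strand, and the sources used here do not give that. Cd68 encodes a lysosomal glycoprotein of macrophages and osteoclasts. Mrc1 and Cd163 encode scavenger receptors, for mannose-bearing glycoproteins and for haemoglobin-haptoglobin complexes. Lyz2 encodes the lysozyme of macrophages and neutrophils, and Aif1 encodes IBA1, a calcium-binding protein of the macrophage cytoskeleton. Apoe encodes the lipid carrier apolipoprotein E, which many cells besides macrophages produce, keratinocytes among them. Trem2 encodes a lipid-sensing receptor of macrophages that signals through the adaptor TYROBP. In the same annotation Cd68 lies on chromosome 11, Mrc1, which hosts the microRNA gene Mir511, on 2, Cd163 on 6, Lyz2 on 10, Aif1 and Trem2 on 17 and Apoe on 7. Lyz2 has a near copy, Lyz1, which is in the table with values between 5 and 57 in the 24 libraries, so lysozyme reads may have been split between them.

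Promoter sequences of 300 bases, with the gene's start at base 251, were available for 7 of the 10 genes in RefSeq (GRCm38.p6). The 4 motifs below were searched on both strands in these windows: GAGGAA, the core bound by PU.1 and other ETS factors; TGANTCA, bound by AP-1; TTGCNNAA, bound by C/EBP factors; and CACGTG, the E-box bound by the MITF and TFE family. GAGGAA was found in 5 of the 7 windows, against 28.3% of all 32851 RefSeq promoters of that length. TGANTCA was found in 2, against 7.81%; TTGCNNAA in 2, against 10.8%; and CACGTG in 0, against 7.15%. The 4 windows below belong to genes that moved in different ways across the libraries, as described further on. Lyz2 and Trem2 followed Adgre1, and Cd68 followed Csf1r and osteoclast genes. Apoe alone had a positive difference between 14 and 21 days, and it was called in proximal digits. Capitals mark the motif matches, and each window is written 5′ to 3′ on the gene's own strand.
Lyz2: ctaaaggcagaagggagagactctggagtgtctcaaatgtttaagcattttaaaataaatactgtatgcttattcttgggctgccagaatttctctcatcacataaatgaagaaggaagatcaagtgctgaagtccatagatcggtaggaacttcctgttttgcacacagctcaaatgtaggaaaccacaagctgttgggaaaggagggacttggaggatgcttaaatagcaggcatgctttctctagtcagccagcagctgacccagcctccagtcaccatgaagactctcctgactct
Trem2: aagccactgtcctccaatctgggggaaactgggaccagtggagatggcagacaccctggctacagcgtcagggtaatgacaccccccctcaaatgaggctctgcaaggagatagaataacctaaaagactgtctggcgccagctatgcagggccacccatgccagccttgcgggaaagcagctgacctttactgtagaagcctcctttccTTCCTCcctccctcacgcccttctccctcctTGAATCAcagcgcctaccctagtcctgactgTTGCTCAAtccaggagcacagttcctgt
Cd68: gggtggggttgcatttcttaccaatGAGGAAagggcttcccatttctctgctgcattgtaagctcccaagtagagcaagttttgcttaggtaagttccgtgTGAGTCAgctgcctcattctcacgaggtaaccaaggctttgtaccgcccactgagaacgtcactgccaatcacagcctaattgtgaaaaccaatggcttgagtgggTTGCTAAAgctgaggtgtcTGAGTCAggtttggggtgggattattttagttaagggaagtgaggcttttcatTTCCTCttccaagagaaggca
Apoe: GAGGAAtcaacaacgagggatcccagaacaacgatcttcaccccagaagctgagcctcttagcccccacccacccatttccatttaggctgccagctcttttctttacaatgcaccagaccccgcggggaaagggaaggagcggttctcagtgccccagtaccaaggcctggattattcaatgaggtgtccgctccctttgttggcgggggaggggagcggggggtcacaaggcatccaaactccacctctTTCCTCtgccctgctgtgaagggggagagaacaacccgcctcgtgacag
They lie at chr10:117282223-117282522 (minus strand), chr17:48346151-48346450 (plus), chr11:69666121-69666420 (minus) and chr7:19699139-19699438 (minus). The Cd68 window holds 5 matches, 2 of GAGGAA, 2 of TGANTCA and 1 of TTGCNNAA. The Trem2 window holds 1 of each of those 3 motifs. The Apoe window holds 2 matches of GAGGAA, and none of the 4 motifs is spelled in the Lyz2 window. A match is a string of letters and no evidence of binding.

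In the GENCODE annotation, Cd14 lies on chromosome 18, bases 36725067 to 36726798 (minus strand), and Csf1r on the same chromosome, bases 61100598 to 61132149 (plus strand).

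The deposited values are whole numbers that appear to have been normalised, and the depth behind them is unknown. They are called values below, and every log2 difference is between means of log2(value + 1) and is followed by its moderated standard error. A gene was called changed when limma's moderated test over all 15055 genes gave a Benjamini-Hochberg adjusted p under 0.05. Markers of the labelled tissue were present: all 8 epidermal and all 8 osteoblast genes searched are in the table, with summed values of at least 209053 and 55986 in every library. For the genes described here, replicate 1 stood apart in 2 groups. Replicate 1 of the distal 14 day group was the highest of its group for 6 of the 10 genes and held 2011 of the MHC class II gene H2-Aa, against 597 to 706 in the other 3 libraries. Replicate 1 of the proximal 12 day group was the lowest of its group for 8 of the 10 genes but the highest for Cd68 and Csf1r, and it held 7558 of the osteoclast gene Acp5, against 903 to 2252. Other libraries also lay at 1 end of their group for many of the genes. Replicate 3 of the distal 14 day group was the lowest for 8 of the 10. Replicate 4 of the proximal 14 day group and replicate 1 of the proximal 21 day group were each the highest for 6. Results that rest on replicate 1 of the distal 14 day or proximal 12 day group are given with and without it.

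Divided by the gene length deposited with the values, the order of the levels was steady. Apoe was the highest of the 10 in 24 of 24 libraries, with a median value of 3426 per kilobase, followed in 24 of 24 libraries by Lyz2 with 1060 per kilobase and Cd68 with 273 per kilobase. Csf1r (median 187 per kilobase), Cd14 (91.3), Mrc1 (50.3) and Adgre1 (35.6) came next in that order, each of them at the same rank in at least 20 libraries. Aif1 (median 16.3 per kilobase), Trem2 (15.3) and Cd163 (10.3) exchanged the last places from library to library. Apoe thus stood at the 99.0th percentile of all genes by median value per kilobase and Cd163 at the 10.7th.

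**Figure D1:**
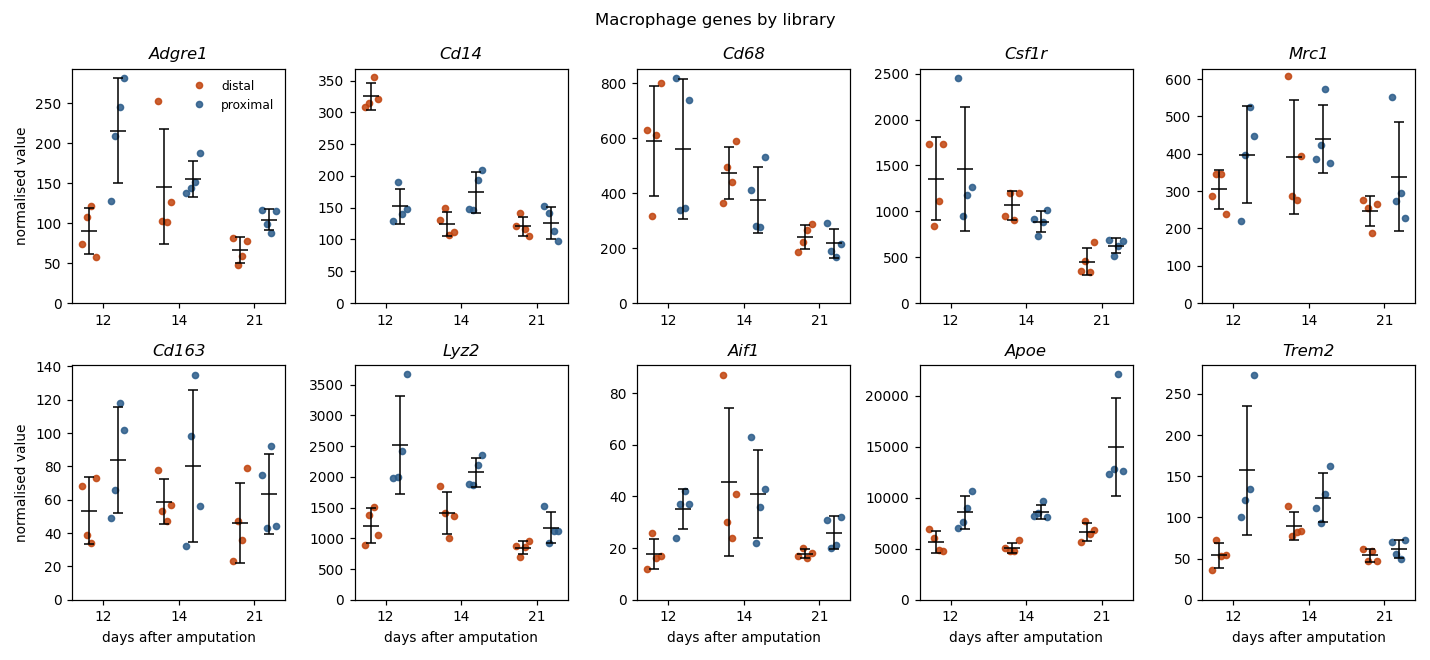
Deposited normalised value of each of the 10 macrophage genes (vertical axis, linear, from 0) against days after amputation, with distal libraries left of proximal ones; points are libraries, the wide tick is the mean and the bar 1 SD (n = 4). At 12 days Cd14 lies between 309 and 356 in distal libraries, above every proximal library, while Adgre1 lies between 58 and 121, below every proximal library; Apoe is highest in proximal 21 day libraries.

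At 12 days, F4/80 and CD14 transcripts stood on opposite sides. Adgre1 had values of 74, 108, 121 and 58 in distal libraries, against 128, 209, 245 and 282 in proximal libraries. The groups did not overlap, and the difference was -1.25 ± 0.28 on the log2 scale, or 2.38-fold lower in distal digits. Cd14 had 309, 315, 356 and 321 in distal libraries, against 129, 191, 140 and 148 in proximal libraries. Every distal library was above every proximal one, and the difference was 1.11 ± 0.15, or 2.15-fold higher in distal digits. These are the values by which the genes were chosen, and they are a description only.

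Most of the other genes were on the side of Adgre1 at 12 days. Trem2 had 36, 73, 53 and 54 in distal libraries, against 100, 121, 135 and 273 in proximal libraries, a difference of -1.45 ± 0.25. Lyz2 had 885, 1376, 1515 and 1048 in distal libraries, against 1989, 1991, 2426 and 3669 in proximal libraries, a difference of -1.05 ± 0.20. Neither gene's groups overlapped. The differences were -0.96 ± 0.33 for Aif1, -0.63 ± 0.41 for Cd163, -0.60 ± 0.17 for Apoe and -0.33 ± 0.28 for Mrc1. Cd68, with 0.11 ± 0.30, and Csf1r, with -0.07 ± 0.26, were on neither side beyond their error. In all, 5 of the 10 genes had groups that did not overlap, 1 higher (Cd14) and 4 lower (Adgre1, Lyz2, Apoe and Trem2) in distal digits, where 23.0% of all genes had groups that did not overlap in either direction. Adgre1 and Cd14 are in that count although their 12 day values chose the group, so the count is partly fixed by the choice. In bulk tissue, fewer cells of a type and less RNA per cell cannot be told apart. Leaving out the proximal replicate 1, in which 8 of the 10 genes were lowest of the group, moved the difference of Adgre1 to -1.48, that of Trem2 to -1.63, that of Cd14 to 1.03, that of Cd68 to 0.34 and that of Csf1r to 0.21. Leaving out a lowest proximal library can only make a distal value look lower by comparison. The proximal replicate 4 was the highest of its group for Adgre1, Lyz2, Apoe and Trem2. It held 273 of Trem2, against 100 to 135 in the others, and 3669 of Lyz2, against 1989 to 2426. The 12 day differences without replicate 4 are not given here.

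**Figure D2:**
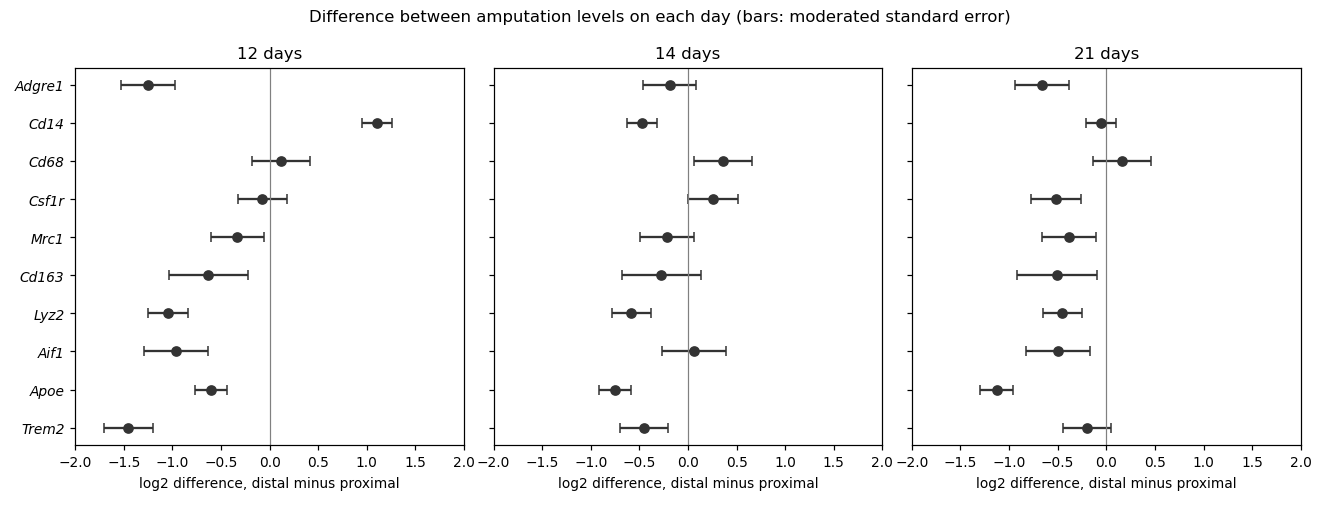
Log2 difference between distal and proximal amputation (horizontal axis, distal minus proximal, on log2(value + 1)) for each gene on each day; points are differences of group means (n = 4 each) and bars 1 moderated standard error. Cd14 is the only point above 1, and Apoe lies below 0 on all 3 days, from -0.60 to -1.13.

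Of 5 genes of acute inflammation and 4 of neutrophils in the table, 4 and 3 stood on the side of Cd14 at 12 days, every distal library being above every proximal one. The exceptions, with overlapping groups, were Il1a and the neutrophil chemokine receptor gene Cxcr2. Of all 15055 genes, 1566 lay above in this way and 1891 below. Of 20 other macrophage surface and lysosomal genes measured, 0 lay above, 7 below and 13 overlapped. Of 7 dendritic and Langerhans cell genes, 0 lay above, 4 below and 3 overlapped. All 6 measured genes that all leukocytes share overlapped. Cxcr2 had 58, 127, 113 and 89 in distal libraries, against 97, 71, 106 and 109 in proximal libraries. Il1b, which encodes the cytokine interleukin 1 beta, had 212, 532, 468 and 293 in distal libraries, against 13, 13, 9 and 6 in proximal libraries. Ptgs2, which encodes the prostaglandin-forming enzyme COX-2, had 505, 414, 383 and 291 in distal libraries, against 201, 72, 57 and 47 in proximal libraries. Csf3r, the receptor gene for the neutrophil growth factor G-CSF, had 84, 114, 170 and 103 in distal libraries, against 20, 20, 7 and 9 in proximal libraries. The distal libraries of all 3 were above the proximal ones. Over the 4 neutrophil genes in the table, of 11 searched (S100a8, S100a9, Csf3r and Cxcr2), the summed value, most of it from S100a8 and S100a9, ran from 1270 to 2841 in distal libraries, against 204 to 481 in proximal libraries. The granule genes Mpo, Elane, Camp and Ngp were among those searched and not found, so neutrophils are read from these 4 genes alone. The part of neutrophils in the Cd14 difference was not tested.

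Within distal digits, Cd14 was lower at 14 than at 12 days in every library. Cd14 had 131, 149, 107 and 111 at 14 days, against 309, 315, 356 and 321 at 12 days, a difference of -1.39 ± 0.15 or 2.62-fold lower, and 121, 141, 116 and 105 at 21 days. In the same comparison of 14 with 12 distal days, 3 of the 5 inflammatory genes measured fell and 0 rose, where 8.12% of all genes fell and 19.4% were called in either direction. Il1b fell by 3.32 ± 0.59 (limma adjusted p = 0.000513), Ptgs2 fell by 1.34 ± 0.35 (adjusted p = 0.0103) and Tnf fell by 1.30 ± 0.41 (adjusted p = 0.0284) on the log2 scale. Of the 4 neutrophil genes, Csf3r fell by 1.97 ± 0.64 (adjusted p = 0.0343) and Cxcr2 fell by 1.91 ± 0.25 (adjusted p = 2.93e-05), both in limma's test. The call of Csf3r was lost when any of replicates 2 to 4 at 12 days or any 14 day replicate was left out, and that of Tnf without replicate 1 or 4 at 12 days or replicate 3 or 4 at 14 days. S100a8 did not follow: it had 688, 4546, 1044 and 90 at 14 days, against 553, 696, 1069 and 601 at 12 days. Of the 9 genes of the endotoxin receptor's other parts that are in the table, Tlr4 alone was called, and it rose by 0.44 ± 0.15 (limma adjusted p = 0.0397), with a mean value of 338.5 at 14 days and 246 at 12 days. That 1 of 9 is below the share of all genes called, and the call was lost without the distal 14 day replicate 1 (0.30, limma adjusted p = 0.158), without each of 4 other libraries (replicates 1, 3 and 4 at 12 days and 2 at 14 days), with equal table totals and with only the compared groups.

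**Figure D3:**
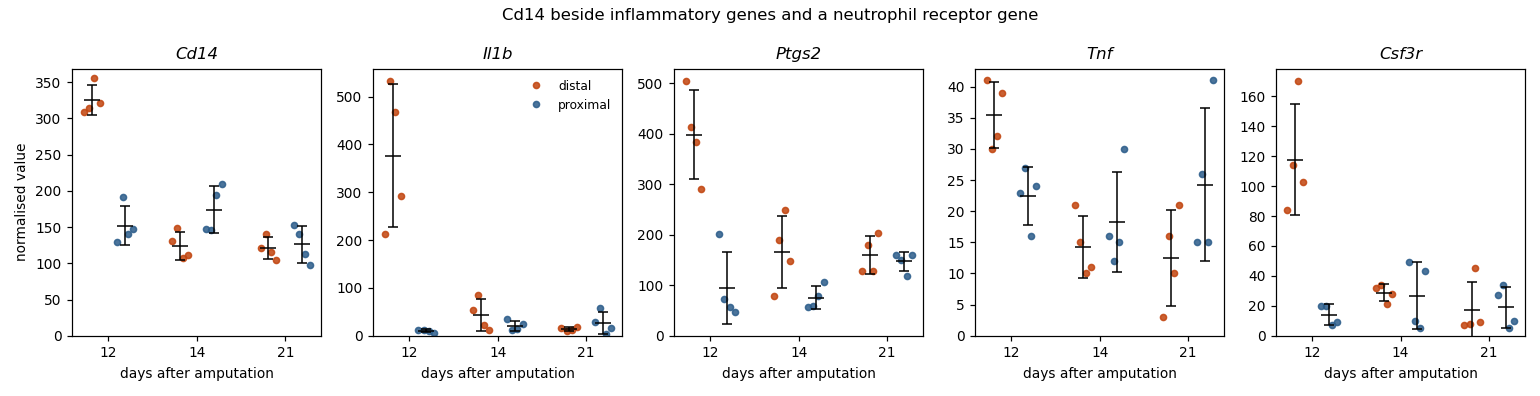
Deposited normalised values (vertical axis, linear, from 0) of Cd14, of the inflammatory genes Il1b, Ptgs2 and Tnf and of the neutrophil receptor gene Csf3r against days after amputation; points are libraries, distal left of proximal, with the mean and 1 SD (n = 4). In Cd14, Il1b, Ptgs2, Tnf and Csf3r alike the distal 12 day libraries have the highest group mean. Other measured genes of the inflammatory and neutrophil lists are not shown. Of these, Ccl2 and, narrowly, Cxcr2 (96.75, against 95.75 in proximal 12 day libraries) also have it there. S100a8 and S100a9 have their highest mean in distal 14 day libraries (1592 and 3017.5), and Il1a in proximal 21 day libraries (194).

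Of the other members, Aif1 and Trem2 were higher in distal digits at 14 days than at 12. Aif1 had 87, 30, 24 and 41 at 14 days, against 12, 26, 16 and 17 at 12 days, and rose by 1.18 ± 0.33 (limma adjusted p = 0.0146). Trem2 had 114, 78, 82 and 84 at 14 days, against 36, 73, 53 and 54 at 12 days, and rose by 0.74 ± 0.25 (limma adjusted p = 0.0403). That made 2 of the 8 tested members, all others being uncalled, where 19.4% of all genes were called in either direction. Both calls rested on single libraries. Without the distal 14 day replicate 1 the differences were 0.82 for Aif1 and 0.62 for Trem2, without the distal 12 day replicate 1 they were 1.03 and 0.57, and in both cases 0 of 8 were called. Trem2 also lost its call when any of replicates 3 and 4 of the distal 12 day group or 2 to 4 of the distal 14 day group was left out, and Aif1 when only the compared groups were fitted (limma adjusted p = 0.0643). Adgre1, not tested here, had a difference of 0.63 ± 0.28 between 14 and 12 days.

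At 14 days, 1 of these genes passed the threshold between the amputation levels. Adgre1 had 253, 103, 101 and 126 in distal libraries, against 138, 144, 151 and 188 in proximal libraries, and its difference of -0.19 ± 0.28 was not called (limma adjusted p = 0.748). Cd14 had 131, 149, 107 and 111 in distal libraries, against 148, 146, 194 and 209 in proximal libraries, a difference of -0.48 ± 0.15 that was not called either (limma adjusted p = 0.0739). Its sign was opposite to that at 12 days. Apoe was the 1 member of 10 that was called, where 5.39% of all genes were called in either direction. It had 5092, 4808, 4755 and 5814 in distal libraries, against 8174, 8528, 9643 and 8131 in proximal libraries, and the difference was -0.75 ± 0.17, or 1.69-fold lower in distal digits (limma adjusted p = 0.0134). Lyz2 had groups that did not overlap, 1845, 1415, 1013 and 1368 in distal libraries and 1883, 1870, 2187 and 2359 in proximal libraries, but its difference of -0.58 ± 0.20 missed the threshold (limma adjusted p = 0.0936). Without the distal 14 day replicate 1 that difference was -0.72 and was called (limma adjusted p = 0.0498). Of all genes, 11.3% had groups that did not overlap at 14 days, in either direction. Of the 20 other macrophage surface and lysosomal genes measured, 0 were called by limma at 14 days, with 2 at an unadjusted p under 0.05. The median difference over the 10 members was -0.25, against 0.0005 over all genes.

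At 21 days Apoe again differed most. It had 5615, 7764, 6468 and 6848 in distal libraries, against 12340, 12833, 22118 and 12601 in proximal libraries, or 6674 ± 891 against 14973 ± 4768 (SD, n = 4 each). The groups were far apart, and the difference was -1.13 ± 0.17, or 2.19-fold lower in distal digits (limma adjusted p = 0.000114); without the proximal replicate 3, the highest library, it was -0.93. It was again 1 of 10 members called, where 17.6% of all genes were called in either direction. Adgre1 had 82, 48, 59 and 78 in distal libraries, against 116, 99, 88 and 115 in proximal libraries. These groups did not overlap either, but the difference of -0.66 ± 0.28 was not called (limma adjusted p = 0.101). Of all genes, 18.8% had groups that did not overlap at 21 days, in either direction. Cd14 had 121, 141, 116 and 105 in distal libraries, against 153, 141, 113 and 98 in proximal libraries, with a difference of -0.05 ± 0.15 (limma adjusted p = 0.860). The other 7 members had differences between -0.52 (Csf1r) and 0.16 (Cd68), none of them called. The median over the 10 members was -0.48, against -0.05 over all genes.

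The 21 day comparison depended on the scale of the libraries. Setting the table totals equal moved the median difference of all genes to -0.19. It left 15.0% of the called genes higher in distal digits, where 46.6% were as deposited, whereas median-ratio factors made 60.5% of them higher and moved the median to -0.01. With equal table totals 4 of the 10 members were called, all lower in distal digits: Adgre1 (-0.80, limma adjusted p = 0.0328), Csf1r (-0.66, adjusted p = 0.0411), Lyz2 (-0.60, adjusted p = 0.0231) and Apoe (-1.27). Relative to the shifted median of all genes, each of these differences was close to its value as deposited. Adgre1 was also called when only the 21 day groups were fitted (limma adjusted p = 0.0459), or without both libraries that stood apart (limma adjusted p = 0.0296).

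Part of the wider set of leukocyte genes was lower in distal digits at 21 days, where 9.43% of all genes were lower. Of 6 genes that all leukocytes share, 4 were lower and 0 higher (limma, adjusted p under 0.05), among them Ptprc, the CD45 gene (-0.79 ± 0.21), and Lcp1 (-0.69 ± 0.20). The summed value of the 6 ran from 622 to 1000 in distal libraries, against 1100 to 1484 in proximal libraries. Of 20 other macrophage surface and lysosomal genes, 6 were lower, 1 (Lamp1) was higher and 13 were uncalled. The 4 with the largest difference were Cd36, a fatty acid and lipoprotein scavenger receptor (-2.13 ± 0.58), Ccr2, the monocyte chemokine receptor (-1.14 ± 0.36), Cd74, the MHC class II invariant chain (-1.07 ± 0.25), and the Fc receptor gene Fcgr2b (-0.86 ± 0.21). Of the 7 genes of dendritic and Langerhans cells measured, 6 were lower, and their summed value ran from 1188 to 1853 in distal libraries, against 2680 to 3128 in proximal libraries. The part of these cells in the members' differences was not tested. With median-ratio factors 3 of the 6 pan-leukocyte genes, 4 of the 20 macrophage genes and 6 of the 7 dendritic genes were lower, and with equal table totals 6, 12 and 6 were. Leaving out 1 library of these groups gave 1 to 4, 3 to 6 and 2 to 6, and Ptprc was called in each case. The fewest pan-leukocyte genes were called without the distal replicate 3 or the proximal replicate 4, the fewest macrophage genes without the distal replicate 2 or the proximal replicate 1 or 2, and the fewest dendritic genes without the distal replicate 1 or the proximal replicate 4. Of the 10 TREM2 and lipid-associated genes, Plin2, which coats lipid droplets, was the 1 called, lower in distal digits (-1.18 ± 0.33, limma adjusted p = 0.0156), a call lost without the distal replicate 2 or the proximal replicate 3. Of the 11 genes for CSF1R ligands and myeloid transcription factors, 3 were lower in distal digits: Irf8 (-1.06 ± 0.33), Il34, an alternative ligand of CSF1R (-0.78 ± 0.20), and Cebpa (-0.38 ± 0.11), of which 1 to 3 were still called when 1 library was left out. Of the 9 endotoxin receptor partners 0 were called by limma at 14 or 21 days, with 2 and 3 of them at an unadjusted p under 0.05.

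Between 14 and 21 days, distal digits lost transcripts of most of these genes. Csf1r had 352, 453, 336 and 663 at 21 days, against 949, 1202, 910 and 1196 at 14 days, and fell by 1.28 ± 0.26 (limma adjusted p = 0.000517). Adgre1 had 82, 48, 59 and 78 at 21 days, against 253, 103, 101 and 126 at 14 days, and fell by 1.04 ± 0.28 (limma adjusted p = 0.00567). In both genes every 21 day library was below every 14 day library. Cd68 had 187, 222, 266 and 286 at 21 days, against 364, 495, 442 and 590 at 14 days, and fell by 0.97 ± 0.30 (limma adjusted p = 0.0144). Lyz2 had 879, 698, 857 and 955 at 21 days, against 1845, 1415, 1013 and 1368 at 14 days, and fell by 0.71 ± 0.20 (limma adjusted p = 0.00867). Again neither gene's groups overlapped. Aif1, with 17, 20, 16 and 18 at 21 days, against 87, 30, 24 and 41 at 14 days, fell by 1.14 ± 0.33 (limma adjusted p = 0.0103). Trem2, with 62, 47, 59 and 47 at 21 days, against 114, 78, 82 and 84 at 14 days, fell by 0.72 ± 0.25 (limma adjusted p = 0.0296). In all, 6 of the 10 members fell and 0 rose, where 21.5% of all genes fell and 34.8% were called in either direction. The same 6 had groups that did not overlap, where 31% of all genes had such groups in either direction.

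Of these 6 falls, 4 did not need the library that stood apart. Without the distal 14 day replicate 1, Adgre1 fell by 0.74, and Cd68, Csf1r and Lyz2 were still called, while Aif1 (-0.77, limma adjusted p = 0.0545) and Trem2 (-0.60, limma adjusted p = 0.0965) were not. Trem2 also lost its call without the distal 21 day replicate 2 or 4. Of the 4 members not called, Cd14 had a difference of -0.04 ± 0.15 and Cd163 of -0.45 ± 0.41. Mrc1 had 277, 254, 188 and 265 at 21 days, against 607, 288, 277 and 395 at 14 days, and its difference was -0.61 ± 0.28. Apoe, at 0.38 ± 0.17, was the 1 member with a positive difference. It was not called as deposited (limma adjusted p = 0.0818). With median-ratio factors (0.43, limma adjusted p = 0.0374) or with only the compared groups fitted (adjusted p = 0.0245) it was called higher at 21 days.

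Many other leukocyte genes fell in distal digits as well, where 21.5% of all genes fell and 34.8% were called in either direction. All 6 pan-leukocyte genes fell, and their summed value ran from 622 to 1000 at 21 days, against 1673 to 3008 at 14 days, or 1673 to 2061 without replicate 1. Of 20 other macrophage surface and lysosomal genes, 12 fell and 0 rose, the largest falls being those of Ccr2 (-2.16 ± 0.36), the scavenger receptor gene Msr1 (-2.08 ± 0.25), the Fc receptor gene Fcgr1 (-1.87 ± 0.47) and Mpeg1 (-1.68 ± 0.34), which encodes a pore-forming protein of phagosomes. The distal 14 day replicate 1 was high in these genes, with 300 for Ccr2, against 69 to 80 in the other 3, and 57 for Fcgr1, against 8 to 15. Without it 6 of 6 and 11 of 20 genes fell, Ccr2 by 1.65, Msr1 by 1.94, Fcgr1 by 1.33 and Mpeg1 by 1.42. Not all leukocyte genes fell. The other 8 of the 20 were uncalled, and of the 4 neutrophil genes S100a8 and S100a9 fell (S100a9 alone without that library, neither without replicate 2), Csf3r was uncalled and Cxcr2 rose by 0.96 ± 0.25 (limma adjusted p = 0.00527). Of 4 mast cell genes 2 fell, and 0 without that library, and Cd4, the 1 lymphocyte gene in the table, was uncalled. Of 7 dendritic and Langerhans cell genes 6 fell, but 2 without that library or without the 21 day replicate 1, and 3 without the 21 day replicate 3 or with only the compared groups. Of the 11 genes for CSF1R ligands and myeloid transcription factors, 4 fell and 4 rose. Spi1, the gene of PU.1, fell by 2.08 ± 0.30, Irf8 fell by 1.55 ± 0.33 and Csf1, the main ligand of CSF1R, fell by 1.18 ± 0.16, whereas Cebpa, which keratinocytes also express, rose by 0.72 ± 0.11. Of 9 endotoxin receptor partners 4 fell, among them Tlr6 (-1.74 ± 0.24), Tlr2 (-0.91 ± 0.23) and Tlr4 (-0.53 ± 0.15), and 1 rose (Traf6). Of 10 TREM2 and lipid-associated genes 3 fell, led by Spp1, the osteopontin gene (-2.40 ± 0.37), and Tyrobp (-1.36 ± 0.28), and 2 rose. Of the 2 genes of alternative activation in the table, of 9 searched, Arg1 rose by 1.05 ± 0.31. Each gene named here from these 4 lists kept its call and direction without the distal 14 day replicate 1, with Irf8 falling by 1.08.

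Osteoclast genes fell along with them, in the same comparison in which 21.5% of all genes fell. Of the 11 osteoclast genes measured, 10 fell, the largest falls being those of the fusion genes Dcstamp (-3.09 ± 0.67) and Ocstamp (-2.96 ± 0.62) and of the matrix protease gene Mmp9 (-2.87 ± 0.63), and the summed value of the 11 ran from 5592 to 11539 at 21 days, against 13834 to 31107 at 14 days. All 8 osteoblast genes and all 6 endothelial genes fell in the same comparison. The part of osteoclasts in the falls of Csf1r and Cd68 was not tested.

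Compared with 12 days, distal digits at 21 days were lower in Cd68 and Csf1r. Cd68 had 187, 222, 266 and 286 at 21 days, against 631, 317, 611 and 799 at 12 days, and fell by 1.23 ± 0.30 (limma adjusted p = 0.00448). Csf1r had 352, 453, 336 and 663 at 21 days, against 1732, 841, 1112 and 1738 at 12 days, and fell by 1.57 ± 0.26 (limma adjusted p = 0.000136), or 2.98-fold. These were 2 of the 8 tested members, where 15.0% of all genes fell and 23.8% were called in either direction. Lyz2 (-0.49 ± 0.20, limma adjusted p = 0.0843) was not called, but without the distal 12 day replicate 1 it was (-0.62, limma adjusted p = 0.0396). For Aif1 and Trem2 the differences were 0.05 ± 0.33 and 0.02 ± 0.25. Of 11 osteoclast genes, 10 fell in this comparison as well.

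In proximal digits, 0 members were called at 14 minus 12 days and 4 at 21 minus 14 days. From 12 to 14 days 0 of 8 tested members were called, where 15.2% of all genes were called in either direction; in limma, 1 of the 8, Csf1r, had an unadjusted p under 0.05 (difference -0.63 ± 0.26). From 14 to 21 days 3 of the 10 members fell and Apoe rose, where 16.3% of all genes fell and 28.7% were called in either direction. Trem2 had 70, 56, 50 and 72 at 21 days, against 112, 93, 128 and 163 at 14 days, and fell by 0.97 ± 0.25 (limma adjusted p = 0.00582). Lyz2 had 1524, 925, 1116 and 1123 at 21 days, against 1883, 1870, 2187 and 2359 at 14 days, and fell by 0.84 ± 0.20 (limma adjusted p = 0.00356). For both, every 21 day library was below every 14 day library, where 25.4% of all genes had groups that did not overlap in either direction. Cd14 had 153, 141, 113 and 98 at 21 days, against 148, 146, 194 and 209 at 14 days, overlapping groups, and fell by 0.47 ± 0.15 (limma adjusted p = 0.0281). That call was lost without any one of 4 libraries, replicates 3 and 4 of either day, where the difference ran from -0.42 to -0.35 and limma's adjusted p from 0.0779 to 0.108. It was also lost with equal table totals (limma adjusted p = 0.105) or with only the compared groups fitted (limma adjusted p = 0.0863). Apoe had 12340, 12833, 22118 and 12601 at 21 days, against 8174, 8528, 9643 and 8131 at 14 days, and rose by 0.75 ± 0.17 or 1.69-fold (limma adjusted p = 0.00177).

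Apoe thus went its own way. No other member was higher at 21 days than at 14 in proximal digits: the 6 uncalled ones had differences between -0.77 ± 0.30 (Cd68) and -0.21 ± 0.41 (Cd163). Among them Adgre1 (-0.57 ± 0.28) and Csf1r (-0.50 ± 0.26) had groups that did not overlap, as did 25.4% of all genes in either direction. With only the compared groups fitted, Adgre1 (limma adjusted p = 0.0192), Csf1r (adjusted p = 0.0158) and Cd68 (adjusted p = 0.0368) were called lower. Cd68 was also called with array quality weights (limma adjusted p = 0.0446), with the replicate block (adjusted p = 0.0221) and without the proximal 14 day replicate 2 or 3 or the 21 day replicate 1 (adjusted p from 0.0366 to 0.0497), and Adgre1 (adjusted p = 0.0429) and Cd68 (adjusted p = 0.0458) without both libraries that stood apart. In the same libraries Il34 rose by 1.04 ± 0.20, whereas Spi1 fell by 0.95 ± 0.30, Irf8 fell by 0.89 ± 0.33 and Csf1 fell by 0.76 ± 0.16. Of the 11 genes of that list, 3 rose and 4 fell, and of 20 other macrophage surface and lysosomal genes 6 fell and 0 rose. Of all genes, 12.5% rose and 16.3% fell. The call of Irf8 was lost without any 1 of these libraries except the 21 day replicate 1, and that of Spi1 without the 14 day replicate 4. Epidermal genes, whose cells can also make apolipoprotein E, had summed values from 479551 to 687373 in proximal libraries at 21 days. The proximal sums ran from 277766 to 541548 at 14 days, with 2 of 8 genes called higher at 21 days, and from 425235 to 797856 at 12 days. In distal libraries the sums ran from 354204 to 566695 at 21 days, 209053 to 361996 at 14 days and 410205 to 479609 at 12 days. The part of the epidermis in the Apoe values was not tested. Without the proximal 21 day replicate 3, the rise of Apoe over 14 days was 0.55 and was still called.

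The comparison of 21 with 12 days in proximal digits called 5 of 8 tested members, 1 higher and 4 lower, where 17.0% of all genes fell and 29.0% were called in either direction. Apoe rose by 0.77 ± 0.17 (limma adjusted p = 0.00132). Cd68 fell by 1.28 ± 0.30 (adjusted p = 0.00266), Trem2 fell by 1.23 ± 0.25 (adjusted p = 0.000847), Csf1r fell by 1.13 ± 0.26 (adjusted p = 0.00205) and Lyz2 fell by 1.08 ± 0.20 (adjusted p = 0.000378), all in limma's test. Each of these 5, and Adgre1, had groups that did not overlap, where 27.7% of all genes had such groups in either direction. Without a test, the differences were -0.99 ± 0.28 for Adgre1 and -0.27 ± 0.15 for Cd14. Leaving out any 1 library of these groups left 5 called.

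Whether the change from 14 to 21 days differed between the amputation levels was tested directly. By limma 0 of the 10 members were called, where 1.90% of all genes were called in either direction, and 1 member, Csf1r, had an unadjusted p under 0.05 (difference of the changes -0.78 ± 0.36). For Adgre1 the difference of the changes was -0.47 ± 0.39 and for Cd14 it was 0.43 ± 0.22. The members called in distal and not in proximal digits, such as Adgre1, Cd68 and Csf1r, were therefore not shown to change differently between the levels.

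Across the 24 libraries the 10 genes fell into sets that varied together, described by Pearson's r of log2(value + 1). The libraries share the day and the level of amputation, so r within groups, computed after taking out the group means, is given too. These are descriptions, and the 12 day contrast that chose the genes is part of them. Adgre1 was most like Lyz2 of all 12485 genes with a mean value of at least 50 (r = 0.906, within groups 0.766, n = 24). The next were Unc93b1, which carries nucleic acid-sensing receptors to endosomes (0.902), Myo1f, a myosin of immune cells (0.898), Ctss, a protease of antigen processing (0.894), and Cybb, the catalytic part of the phagocyte oxidase (0.894). Trem2 (0.865), Aif1 (0.759) and Mrc1 (0.751) were also close to Adgre1.

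Csf1r and Cd68 were close to each other (r = 0.869, within groups 0.734) and not to Adgre1, with which Csf1r had 0.358 overall and -0.416 within groups. The genes most like Csf1r, named after their values were seen, were Itgb3, the beta chain of the osteoclast's vitronectin receptor (0.964), Laptm5, a leukocyte lysosomal gene (0.963), and Ctsk, the main collagen-degrading protease of osteoclasts (0.962, within groups 0.936). Those of Cd68 were led by Gpr137b (0.948), a lysosomal membrane gene. Acp5, the osteoclast's acid phosphatase gene, had 0.873 with Csf1r and 0.870 with Cd68 but -0.007 with Adgre1. The proximal 12 day replicate 1 shows the same parting within 1 library: it had the highest Csf1r (2448) and Cd68 (820) of its group, the highest Acp5 (7558), and the lowest Adgre1 (128) and Lyz2 (1989).

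Cd14 was close to none of the other members. Its r was -0.034 with Adgre1, 0.444 with Cd68 and 0.424 with Csf1r. Within groups it was 0.165 with Adgre1, -0.068 with Cd68 and -0.222 with Csf1r. The 5 genes most like it were Lrp8, a lipoprotein receptor (0.844), Selp, the P-selectin gene of activated endothelium and platelets (0.825), Ctps, an enzyme of nucleotide synthesis (0.799), Clec4d, a lectin receptor of myeloid cells (0.788), and Il4ra, the interleukin 4 receptor alpha chain gene (0.784). Without the 4 distal 12 day libraries, which hold the highest Cd14 values, r was 0.820 for Lrp8 and 0.648 for Selp, but 0.455 for Ctps (n = 20). Il1b had 0.784 with Cd14 over the 24 libraries and 0.414 within groups. Apoe lay apart as well: its r with the other members ran from -0.508 (Cd68) to 0.359 (Cd163).

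**Figure D4:**
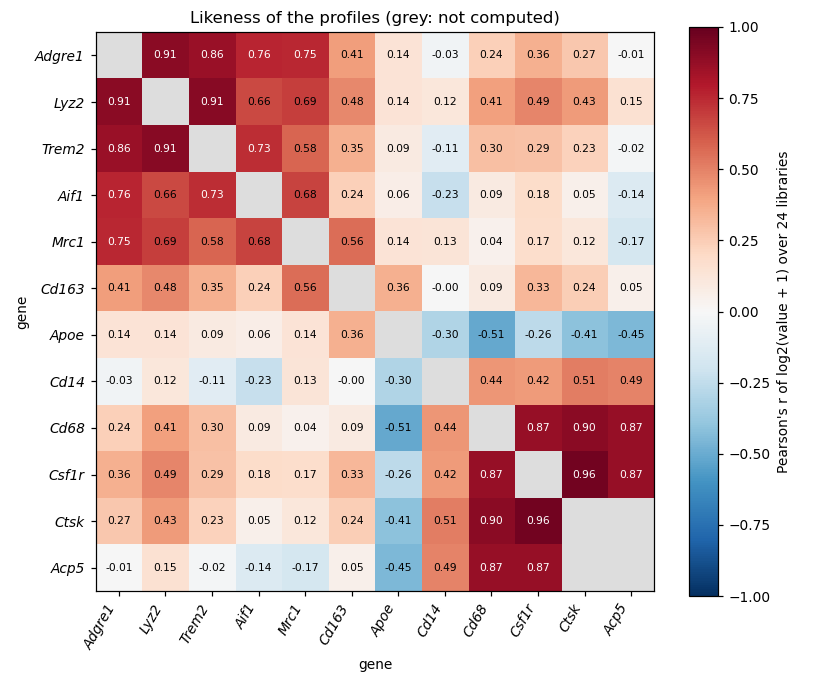
Pearson's r of log2(value + 1) over 24 libraries between the 10 macrophage genes and the osteoclast genes Ctsk and Acp5, as colour from -1 to 1 with the value printed in each cell. Adgre1, Lyz2, Trem2, Aif1 and Mrc1 form one block with r of at least 0.585, Cd68 and Csf1r another with Ctsk and Acp5 with r of at least 0.869, and Cd14, Cd163 and Apoe lie outside both.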

How the data were processed

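Ribosome-depleted total RNA was sequenced from 24 digit tip libraries, 4 in each of 6 groups taken from the labels. Per the submitters' processing notes, cutadapt, STAR 2.5.4b and featureCounts 1.6.3 (Subread) were used with build mm10. The deposited whole numbers for 15055 genes were treated as a score normalised by the authors, because over 9650 genes above 100 the direction of least spread across libraries (0.00675, natural log) lay below Poisson noise (0.0453), and because upper quartiles ran only from 902.5 to 930.5. No header or label records that step. Table totals, divided by 1e+06, ran from 15.3 to 19.4; depth is unknown, so no counting interval was computed, count models were not used, and p-values may be too small.

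From these values group means on log2(value + 1) were estimated for all 24 libraries in 1 linear model, using lmFit and eBayes with trend from limma 3.58.1 (R 4.3.3), and p-values were adjusted over all genes. The fit was tested on simulated data. The alternatives were pseudocounts of 0.5 and 8, median-ratio factors, equal table totals, a mean value of at least 50, array quality weights, the compared groups alone, a replicate block, and leaving out single libraries; a low-spread covariate and leaving out 2 libraries together were chosen after seeing the data. Members and gene lists were chosen with earlier results of these data known. Named were all 10 members, the 5 genes most correlated with Adgre1 and with Cd14, and up to 4 called genes with the largest difference per list; further names were picked with their values in view. Motifs were counted in RefSeq promoters, and gene positions are those of GENCODE M21.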

Additional observations from a re-analysis of the deposited data

Results flagged for a closer look

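Of 60 groups of 4 libraries (10 genes in 6 groups), 3 held a library far from the other 3 by Dixon's gap ratio; chance gives about 1 in 20 groups. Adgre1 was 253 in replicate 1 of the distal 14 day group, against 101 to 126 in the others. Trem2 was 114 in the same library, against 78 to 84. Apoe was 22118 in replicate 3 of the proximal 21 day group, against 12340 to 12833. The values of the comparisons without these libraries are given with the results above.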

How the results depend on the processing

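No called difference changed sign under any alternative run. Counts of members called are given here where they moved by over 1.5 times. Distal minus proximal at 14 days, 2 members were called in place of 1 without the 2 libraries that stood apart, and 1 to 2 with each library left out in turn. At 21 days 4 were called with equal table totals, 2 with only the compared groups and 2 without those 2 libraries, in place of 1. In distal digits, 14 minus 12 days, 1 was called with a mean value of at least 50, where Aif1 falls under the filter, 1 with only the compared groups, 0 without those 2 libraries, and 0 to 2 with each library left out, in place of 2. In proximal digits, 14 minus 12 days, 1 (Csf1r) was called with equal table totals in place of 0. The causes were not tested, beyond the smaller number of samples or genes. Scaling moved the share of called genes that were higher by over 10 percentage points in other comparisons too. With median-ratio factors it was 49.9% in place of 38.1% in distal digits at 21 minus 14 days, 48.6% in place of 37.0% at 21 minus 12 days, and 72.1% in place of 52.8% for the difference of the changes. With equal table totals it was 20.6% in distal digits at 21 minus 12 days, 27.9% in place of 48.4% in proximal digits at 14 minus 12 days, 65.9% in place of 43.3% at 21 minus 14 days, where the median of all genes moved to 0.11, and 12.3% for the difference of the changes, where it moved to -0.20.

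With the replicate number as a block, 5 members were called in place of 4 in proximal digits at 21 minus 14 days, Cd68 being added, and the other 8 counts were as without the block. The replicate numbers did not pair the libraries: over 60 pairs with the same number, deviations from group means correlated from -0.457 to 0.702 (median 0.0241), with 16 over 0.1, and 6 of 24 libraries were closest to one of their own number. Depth is unknown, which limits Aif1, Trem2 and Cd163 most, as the lowest genes per kilobase.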
